A study of Bos taurus with 10 samples.

Results

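Embryos from cows given the higher dose of senktide were compared with embryos from vehicle cows over the probes that could be read on every array of both groups. Senktide, a peptide, activates the neurokinin-3 receptor. The comparison uses 6 of the 10 arrays of the series. A probe was taken where its spot was well above background, by the flag of the scanner software, on all 6 arrays, and 2598 of 43653 probes met this rule. Of these, 2328 carried a gene name and stood for 1696 genes, 59 of them with LOC identifiers, and 270 carried none. For each gene the detected probe with the highest mean over the 6 arrays was used. The gene and list counts below rest on this probe alone. Several detected probes were present for 412 genes, and in 245 of them (59.5%) the probes shared the sign of their difference between the groups. The rule keeps a probe only where the vehicle arrays also show it, so it holds no transcript seen at the higher dose alone.

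The vehicle group (n = 2) came from superovulated cattle given DMSO. The higher dose group (n = 4) came from superovulated cattle infused with senktide at 300 nmol/min for 2 h, starting 48 h into the superovulation treatment. Both groups were inseminated at 108 h and 120 h, and embryos were flushed on day 7. Each sample's total RNA, carrying the Cy3 dye, was read on its own array of 60-base probes. The titles, source and tissue fields name embryos, while the extraction text speaks of endometrium. Whether the samples of a group stem from different donors, and the number of embryos pooled in each, is not given in the labels. The p-values therefore describe the spread among these arrays, and that spread may be technical. Another 4 arrays, from cows given 30 nmol/min, took no part in choosing the probes and are quoted as values only.

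At this age a bovine embryo is a compact morula or blastocyst, in which an outer epithelium, the trophectoderm, encloses the inner cell mass. Trophectoderm cells seal to each other through tight and adherens junctions and desmosomes, carry a cortex of actin under the membrane, and pump sodium and water into the cavity. Neurokinin-3 signalling acts in the mother on the neurons that drive pulsatile release of gonadotropin-releasing hormone, and the infusion was given to the donor cows.

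The arrays were dim, and brightness differed between slides. Slides 1 and 2 each held 1 vehicle array and the higher dose array of the same number, and slide 3 held higher dose arrays 3 and 4 and no vehicle array. The share of 43803 spots well above background was 7.17% and 9.44% on the vehicle arrays and 10.47%, 13.2%, 19.6% and 19.1% on the higher dose arrays. The means were 8.31% ± 1.60 (SD, n = 2) and 15.6% ± 4.49 (SD, n = 4). The groups did not overlap, and the difference was 7.28 percentage points (two-sided exact permutation p = 0.133). With 15 arrangements no outcome could give a p under 0.05, so this test could not pass the threshold. Within slides 1 and 2 the difference was 3.30 and 3.72 points.

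The detected probes held trophectoderm transcripts on both sides of the comparison. KRT8, a keratin of simple epithelia, lay at 4.25 and 3.96 on the vehicle arrays and at 4.59, 4.28, 4.82 and 4.14 on the higher dose arrays. These levels, like all levels below, are log2 signals minus the array's 75th percentile over the detected probes. Its partner KRT18 lay at 3.84 and 3.16 against 3.90, 3.80, 3.79 and 2.90. Both sets of values overlapped. Of the trophectoderm list 10 of 23 genes on the array were detected, of the primitive endoderm list 3 of 20, and of the epiblast list 3 of 18, namely SOX2, KLF4 and SPIC. The trophectoderm regulator CDX2 and the pluripotency gene NANOG were not well above background on any of the 6 arrays, and POU5F1 was so on 2 higher dose arrays. No gene of the lists for uterine and oviduct epithelium (11 genes), stroma and endothelium (10), blood (7) or cumulus and granulosa cells (11) was detected on all 6 arrays. Among 17 leukocyte genes LYZ, a lysozyme, was the 1 detected gene, at −1.89 and −2.06 on the vehicle arrays and −2.44, −2.35, −2.56 and −2.43 at the higher dose. The summed linear signal of the leukocyte list, in units of the array's 75th percentile, ranged from 1.25 to 1.47 on the vehicle arrays and from 0.583 to 1.08 on the higher dose arrays. That of the uterine list ranged from 0.688 to 1.06 and from 0.129 to 0.662, and 10 of its 11 genes were well above background on no array. Among the 17 leukocyte genes 12 were well above background on no array and 15 on no vehicle array. PTPRC, ITGB2 and AIF1 were so on 0 vehicle arrays and on 3, 2 and 1 higher dose arrays, and CD3D on 1 and 3. Both sums thus include the signal of dim genes. The same sums for the blood, stroma and endothelium, and cumulus and granulosa lists were also lower at the higher dose. So was that of the embryo's own epiblast list, at 2.64 to 2.66 on the vehicle arrays and 1.80 to 2.55 on the higher dose arrays. The sums of the trophectoderm and primitive endoderm lists overlapped between the groups. Whether cell content differed was not tested.

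No probe passed the threshold. In limma's moderated test with Benjamini-Hochberg adjustment the smallest adjusted p was 0.140, reached by 15 probes. At an unadjusted p under 0.05 there were 128 higher probes (4.93% of those tested) and 286 lower probes (11%), together 414 (15.9%), beside 129.9 expected at that threshold. Without overlap between the groups were 235 higher probes (9.05%) and 430 lower probes (16.6%), together 665 (25.6%). Non-overlap of so few arrays is a weak criterion. For the share of bright spots, whose groups did not overlap either, the two-sided exact permutation p was 0.133. The fitted differences ranged from −2.14 to 1.60 on the log2 scale with a median of −0.06 and a median standard error of 0.19. Past 2-fold lay 11 probes higher and 40 lower. The 11 included probes described below whose higher dose arrays lay on both sides of vehicle, such as those of AKT1S1 (1.40, SE 1.60) and MYADM (1.05, SE 1.52). Two-sided tests were used throughout, and 2 vehicle arrays set the precision of each difference.

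The 12 higher genes with the smallest p and no overlap between the groups are given first. SNRPD1, a core Sm protein of the spliceosome, lay at −1.06 and −1.09 on the vehicle arrays and at −0.23, −0.38, −0.26 and −0.34 on the higher dose arrays. Each higher dose array was above both vehicle arrays by more than the spread within either group. The difference was 0.77 (SE 0.14), with a limma adjusted p of 0.140. A further detected probe of SNRPD1 differed by −0.25 (SE 0.18), so the gene's probes disagreed in direction.

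YWHAB, an adaptor protein that binds phosphorylated serines, lay at −0.95 and −1.24 against −0.27, −0.34, −0.43 and −0.32, a difference of 0.76 (SE 0.16). ACLY, the enzyme that makes cytosolic acetyl-CoA from citrate, lay at −0.98 and −0.29 against −0.06, 0.14, 0.27 and 0.16. The ACLY groups were apart although the vehicle arrays themselves differed by more than the higher dose arrays did. Its difference was 0.76 (SE 0.21), and its other detected probe gave 0.88 (SE 0.15) with a limma adjusted p of 0.140. CAPZA1, which caps the barbed end of actin filaments, lay at −1.44 and −1.82 against −0.87, −1.03, −0.92 and −0.97. EZR, which ties membrane proteins to the actin cortex, lay at −0.68 and −0.98 against −0.21, −0.35, −0.02 and −0.32.

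The remaining higher genes of the 12 were TPD52 (0.73), EFHD2, an EF-hand protein that binds calcium (0.73), ROGDI (0.70), DDX23, a spliceosomal helicase (0.67), SNU13, an RNA-binding protein of the spliceosome and of small nucleolar particles (0.64), RAP1A, a small GTPase of cell adhesion (0.62), and HSD17B10, a mitochondrial dehydrogenase (0.61). Their standard errors ran from 0.16 to 0.19 and their limma adjusted p from 0.173 to 0.190. SNU13 lay between −1.34 and −1.13 on the higher dose arrays and at −1.68 and −1.99 on the vehicle arrays. The list of splicing factors as a whole held 23 higher and 24 lower genes of 47, with a median of −0.01. At an unadjusted p under 0.05 there were 4 higher (8.51%) and 3 lower (6.38%), beside 4.66% and 12.1% over all 1696 genes.

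The 12 lower genes chosen the same way had larger differences. However, 7 of them lay in the lowest level set described below, where 87.1% of the probes were lower. The rule keeps a dim probe only where both vehicle arrays show it, and the part of this in the size of the differences was not tested. ARL6IP4, a nuclear protein linked to splicing, lay at −1.51 and −1.91 on the vehicle arrays and at −3.18, −2.92, −4.10 and −4.31 on the higher dose arrays. The lowest values were those of slide 3. The difference was −1.92 (SE 0.38, limma adjusted p = 0.140), and within slides 1 and 2 it was −1.68 and −1.01. SMARCA4, the ATPase of the SWI/SNF chromatin remodelling complex, averaged −1.85 ± 0.49 (SD, n = 2) against −3.37 ± 0.43 (SD, n = 4), without overlap, a difference of −1.52 (SE 0.29). GLOD4, a glyoxalase domain protein, lay at −1.79 and −1.10 against −2.89, −2.41, −2.83 and −3.20, a difference of −1.39 (SE 0.26).

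CHRNA1, a subunit of the muscle acetylcholine receptor, lay at −1.33 and −1.17 against −2.45, −1.99, −2.52 and −2.52. Its difference was −1.12 (SE 0.19), and within slides 1 and 2 it was −1.11 and −0.82. TNIK, a kinase of Wnt signalling, lay at −2.40 and −2.31 against −3.12, −3.27, −3.61 and −3.58. POLR2L, a small subunit shared by the RNA polymerases, was among the brighter genes of this group, at −0.62 and −0.48 against −1.22, −1.50, −1.25 and −1.50. The other lower genes were ASIP, the agouti signalling protein (−1.10), PSD, an exchange factor for ARF GTPases (−1.09), ZNF205, a zinc finger protein (−0.97), DBP, a transcription factor of the circadian clock (−0.89), CLK3, a kinase of splicing factors (−0.87), and OST4, a subunit of the oligosaccharyltransferase (−0.81). Limma adjusted p for these 12 ran from 0.140 to 0.173.

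**Figure D1:**
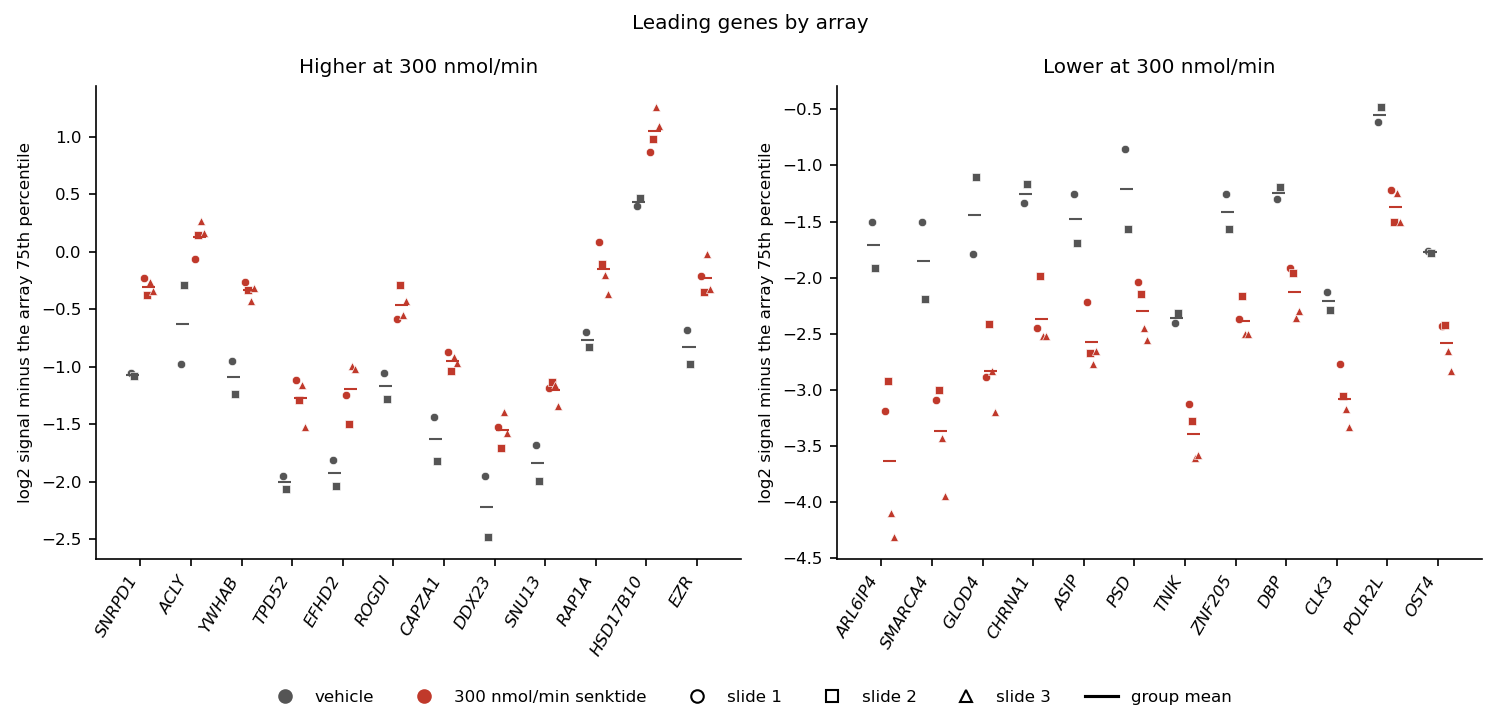
Each point is 1 array's level (log2 signal minus the array's 75th percentile) of the 12 higher genes (left) and the 12 lower genes (right) with the smallest p among genes whose groups do not overlap. Grey marks vehicle, red marks 300 nmol/min, symbols mark the slide and bars the group mean. Higher genes differed by 0.61 to 0.77, while lower genes differed by −1.92 to −0.81 and for ARL6IP4 the slide 3 arrays lay lowest.

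Values at the lower dose, which share the vehicle arrays, are given for comparison. At 30 nmol/min SNRPD1 lay at −0.27 ± 0.16 (SD, n = 4), beside −0.30 ± 0.07 (n = 4) at 300 nmol/min and −1.07 ± 0.02 (n = 2) in the vehicle group. CHRNA1 lay at −2.49 ± 0.54 at 30 nmol/min, beside −2.37 ± 0.26 at 300 nmol/min and −1.25 ± 0.12 in the vehicle group. DSG2, a desmosomal cadherin, lay at −0.81 ± 0.15 at 30 nmol/min, beside −0.26 ± 0.19 at 300 nmol/min and −0.85 ± 0.11 in the vehicle group. No test between the doses was made for these genes.

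The differences varied with the level of the probe. The 433 probes with the lowest mean level had a median difference of −0.36. Of them 377 (87.1%) were lower at 300 nmol/min, and at an unadjusted p under 0.05 there were 0 higher and 142 lower. In the next 433 probes the median was −0.09, with 16 higher and 63 lower. The 4 brighter sets had medians within 0.03 of 0, and in the brightest set 21 were higher and 16 lower. Spearman's rho between level and difference was 0.35 across the 2598 probes, which share the same 6 arrays. Within slide 1 the median of the lowest set was −0.44, and within slide 2 it was −0.06. After cyclic loess, which levels this dependence by design, that median was −0.02. With cyclic loess 174 probes (6.7%) were higher and 164 (6.31%) lower at an unadjusted p under 0.05.

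Of the 12 lower genes 7 had means over the 6 arrays inside the lowest set. Their differences after cyclic loess were −1.26 for ARL6IP4, −1.04 for GLOD4, −0.93 for SMARCA4, −0.83 for ASIP, −0.49 for OST4, −0.35 for TNIK and −0.32 for CLK3. The brighter POLR2L kept −0.84. LYZ of the leukocyte list, also in the lowest set, differed by −0.47, and by −0.16 after cyclic loess. The higher genes moved little: SNRPD1 gave 0.74, YWHAB 0.73 and CAPZA1 0.67.

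Values near the detection limit show where the rule acted. Detected on every array but vehicle 1 were 938 probes, with a median difference of 0.11. Missing on vehicle 2 alone were 100 probes, with a median of −0.06. Only 28, 4, 5 and 5 probes were missing on a single higher dose array, numbers 1 to 4. The 100 members nearest the limit had a median of −0.15. Well above background on all 4 higher dose arrays and neither vehicle array were 510 probes, and on both vehicle arrays and no higher dose array 10. The part of brightness in the counts of lower probes was not tested.

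**Figure D2:**
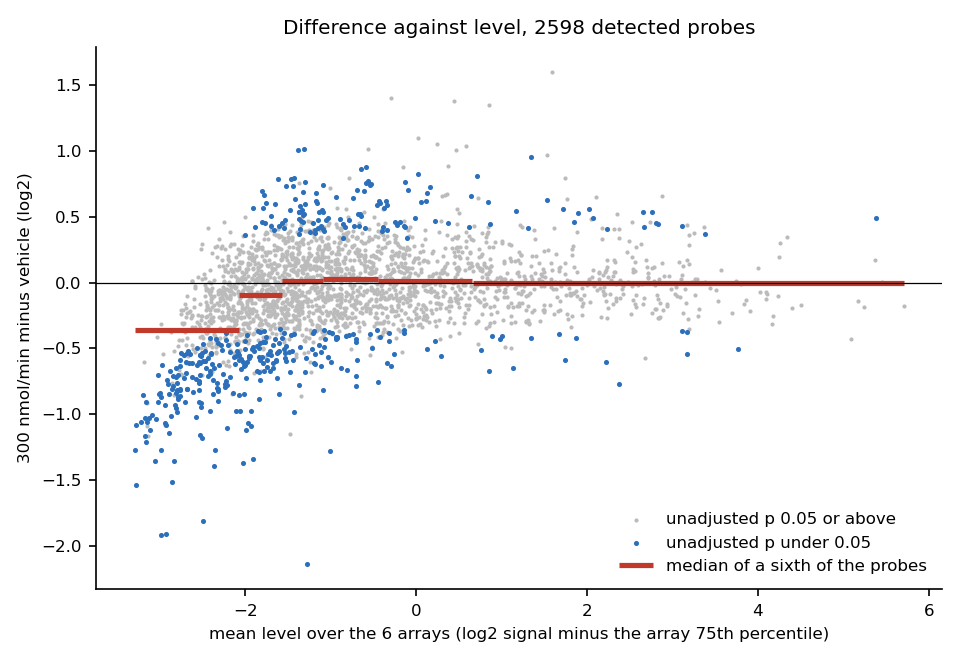
The difference between 300 nmol/min and vehicle (log2, vertical axis) is plotted against mean level over the 6 arrays (horizontal axis) for the 2598 detected probes, with probes of unadjusted p under 0.05 in blue. Red bars give the median of each set of 433 probes ordered by level: −0.36 in the lowest set, −0.09 in the next, and within 0.03 of 0 above that.

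No gene of the junction, actin, pump or transporter lists passed the adjusted threshold. Of 9 detected junction genes 6 were higher and 3 lower, with a median of 0.42, and 3 were higher at an unadjusted p under 0.05. Over all 1696 genes 703 were higher and 993 lower with a median of −0.07, and at that p 79 (4.66%) were higher and 205 (12.1%) lower. The median level of the junction list was −0.14, beside −1.14 over all genes. Beyond the 2 members of a list with the smallest p, members of lists named here and below were chosen after their values were seen. DSG2 lay at −0.93 and −0.78 on the vehicle arrays and at −0.21, −0.38, −0.02 and −0.45 on the higher dose arrays. DSP, the plaque protein that anchors keratin at the desmosome, lay at −1.49 and −1.67 against −0.95, −1.22, −0.58 and −1.10. JUP, the plakoglobin of desmosomes and adherens junctions, lay at −0.62 and −0.23 against 0.06, −0.07, 0.18 and −0.16. In these 3 genes every higher dose array exceeded both vehicle arrays, by 0.59 (SE 0.17), 0.62 (SE 0.20) and 0.43 (SE 0.18) on average. The adherens junction cadherin CDH1 differed by 0.26 (SE 0.18) and its partner CTNNB1 by 0.42 (SE 0.28). Among the lower members were CTNNA1, which links cadherins to actin (−0.23, SE 0.19), and F11R, of tight junctions (−0.0027, SE 0.20). The list's median stayed between 0.24 and 0.43 over the scalings, the 10-array fit, both slide settings and the mean over a gene's probes.

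Of 22 detected genes of the actin cytoskeleton 18 were higher and 4 lower, with a median of 0.21. At an unadjusted p under 0.05 there were 4 higher (18.2%), CAPZA1, EZR, ACTG1 and ARPC1A, and 0 lower, beside 4.66% and 12.1% over all genes. The list's median level was 0.48, beside −1.14 over all genes. In the next to brightest and the brightest set of 433 probes 26 and 21 were higher, and 12 and 16 lower, at that p. Groups did not overlap for 7 of the 22, all higher, beside 149 higher (8.79%) and 298 lower (17.6%) of the 1696 genes. ACTG1, cytoplasmic gamma actin and among the brightest members, lay at 4.96 and 5.14 against 5.52, 5.35, 5.81 and 5.49. ACTB, cytoplasmic beta actin, differed by 0.38 (SE 0.18) and its other probe by 0.44 (SE 0.16). ARPC1A, a subunit of the branching complex Arp2/3, differed by 0.43 (SE 0.14), the monomer-binding profilin PFN1 by 0.31 (SE 0.14) and cofilin CFL1, which severs filaments, by 0.32 (SE 0.15). The lowest member was the myosin light chain MYL6 (−0.49, SE 0.31). The list's median stayed between 0.16 and 0.37 over the same settings.

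The membrane-binding ANXA2 lay at −0.50 and −0.57 against 0.00, 0.07, 0.90 and 0.21, and array 3 of slide 3 stood above the others. Its difference was 0.83 (SE 0.25), and within slides 1 and 2 it was 0.50 and 0.63. Of the 4 detected genes of ion pumps and water channels, all were higher, with a median of 0.19. Among them were ATP1B3, a beta subunit of the sodium pump (0.56, SE 0.19), the aquaporin AQP3 (0.15, SE 0.23) and ATP6V0C of the proton pump (0.23, SE 0.20). The 3 detected probes of ATP1B3 gave 0.34, 0.56 and 0.81. The glucose transporter SLC2A3 lay at 0.40 and 0.28 against 0.61, 0.75, 1.01 and 0.67. Nutrient transporters were higher in 6 of 8 genes with a median of 0.20, which turned to −0.05 with normexp and quantile normalization.

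The regulators of trophectoderm identity did not move together: 5 of 10 were higher and 5 lower, with a median of 0.02. That median was −0.04 with the mean over a gene's probes, 0.24 with cyclic loess, 0.26 with quantile normalization and 0.13 with slide as a block. GATA2 lay at −0.92 and −0.74 against −0.39, −0.66, 0.15 and −0.43, a difference of 0.50 (SE 0.23), and within slides 1 and 2 it was 0.54 and 0.08. GATA3 differed by −0.07 (SE 0.24) and TFAP2C by 0.39 (SE 0.22). GATA3 turned to 0.19 without vehicle array 2. SOX2, the inner cell mass regulator, lay at −1.62 and −2.28 against −1.58, −2.08, −3.13 and −2.36, and the groups overlapped. Its difference was −0.34 (SE 0.38), and 0.12 with slide as a block.

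**Figure D3:**
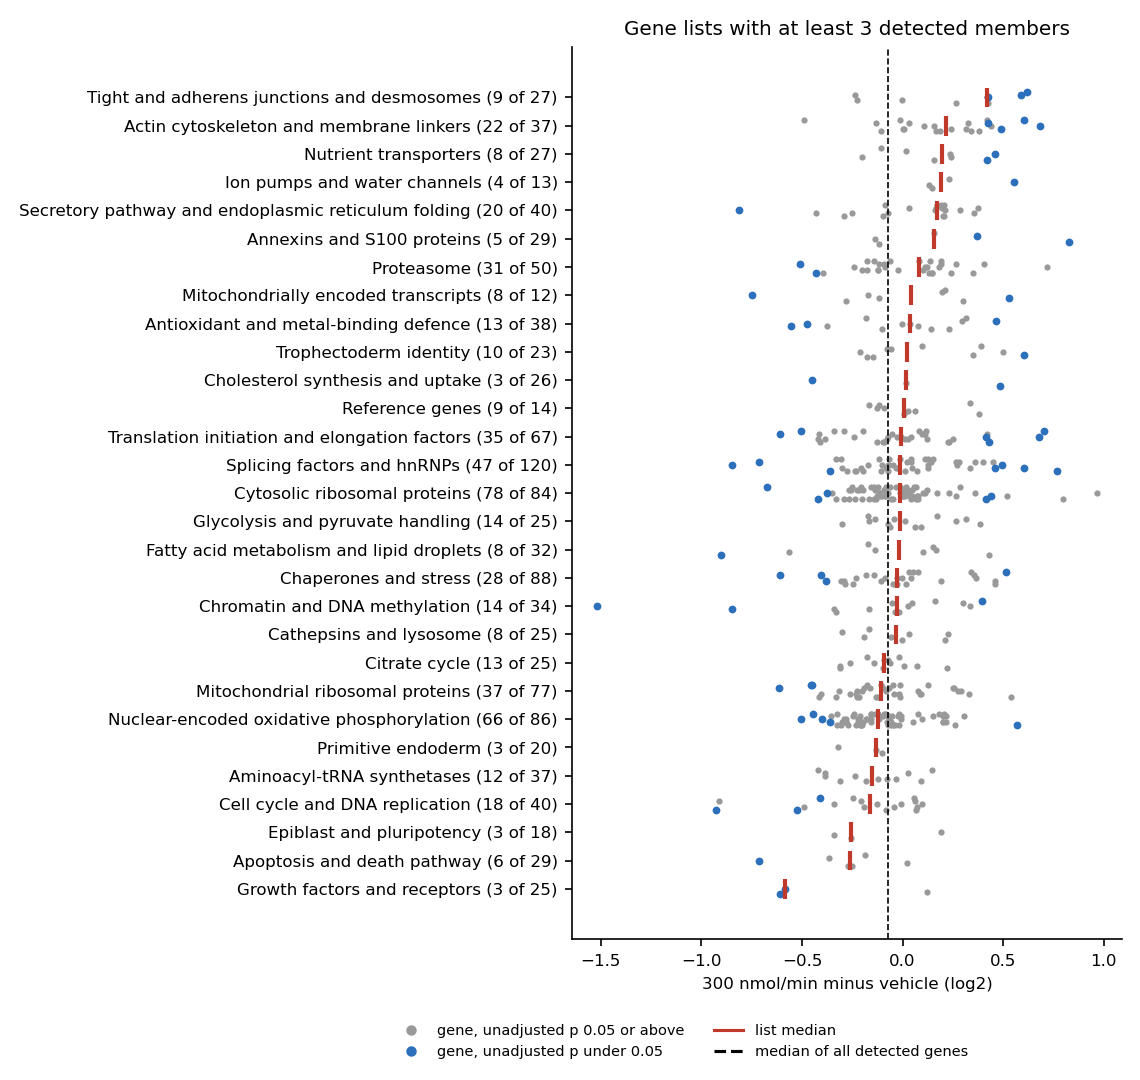
Each point is 1 detected gene's difference between 300 nmol/min and vehicle (log2) in the 29 lists with at least 3 detected members, with members detected of members on the array in brackets. Blue marks an unadjusted p under 0.05, the red bar the list median and the dashed line the median of all 1696 genes, −0.07; junctions (0.42) and actin (0.21) lie farthest to the right.

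Of 66 detected nuclear genes of oxidative phosphorylation 14 were higher and 52 lower (78.8%, beside 58.5% over all genes), with a median of −0.12. The list's median level was 0.21, beside −1.14 over all genes, so the shares over all genes are not those of genes of like level. In the next to brightest and the brightest set of 433 probes 47.1% and 51.3% were lower, and 12 and 16 were lower at an unadjusted p under 0.05. At that p the list held 1 higher (1.52%) and 4 lower (6.06%), beside 4.66% and 12.1% over all genes. The higher gene was NDUFA1, a subunit of complex I, at −0.69 and −0.82 against −0.11, 0.29, −0.35 and −0.56. The lower genes were UQCC4, an assembly factor of complex III (−0.50), COX5B of complex IV (−0.44), NDUFA5 of complex I (−0.40) and ATP5PO of the ATP synthase (−0.36). The other detected probes of UQCC4 gave −0.29 (SE 0.20) and −0.29 (SE 0.19). The list's median was −0.11 within slide 1, 0.02 within slide 2 and −0.05 with slide as a block. It turned to 0.08 with normexp and the 75th percentile, relative to the shift of all detected probes. Mitochondrial ribosomal proteins were higher in 10 and lower in 27 of 37 genes (73.0%), with a median of −0.11. Cytosolic ribosomal proteins, 78 of 84 detected, were higher in 33 and lower in 45, with a median of −0.01 that turned to 0.42 with that normexp setting. RPL10 of the large subunit lay at 2.56 and 2.51 against 2.95, 3.21, 2.98 and 2.78, and its 4 detected probes gave 0.44 to 0.45. RPL37A of the same subunit lay at 1.73 and 1.53 against 1.36, 1.32, 1.07 and 1.07, and its probes gave −0.42 and −0.31. RPL9 was counted as lower (−0.20), while another detected probe of it gave 0.80, and the list's median was −0.01 with the mean over a gene's probes. At an unadjusted p under 0.05 the list held 2 higher (2.56%) and 3 lower genes (3.85%). Translation factors split, with 4 higher (11.4%) and 2 lower (5.71%) of 35 at an unadjusted p under 0.05. Among them EIF3E (0.71, SE 0.22) and EIF4A2 (0.68, SE 0.20) were higher, and EIF2B3 (−0.61, SE 0.16) was lower. The other detected probes of EIF4A2 gave 0.45 (SE 0.28) and −0.08 (SE 0.51). EIF2B3 lay in the lowest level set, and its difference was −0.12 with cyclic loess and −0.29 with quantile normalization.

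Cell cycle genes were lower in 13 of 18 (72.2%, beside 58.5% over all genes), with a median of −0.16. At an unadjusted p under 0.05 there were 3 lower (16.7%, beside 12.1% over all genes). ANAPC11, a subunit of the ligase that ends mitosis, lay at −0.76 and −0.77 against −1.40, −1.11, −1.37 and −1.26. The kinase CDK2 lay at −2.05 and −2.60 against −2.87, −2.56, −3.89 and −3.69, with overlap. Within slides 1 and 2 it differed by −0.82 and 0.041. CDK2 lay in the lowest level set, and its difference was −0.93 (SE 0.37), and −0.29 with cyclic loess. RPA2, which binds single-stranded DNA, differed by −0.41 (SE 0.17) and its other probe by −0.17. CCNB2, a mitotic cyclin with an unadjusted limma p of 0.0578, lay at −2.35 and −2.72 against −2.79, −2.81, −3.99 and −4.22, so that the low values were those of slide 3, and within slides 1 and 2 it differed by −0.44 and −0.08. MCL1, which restrains apoptosis, lay at −0.50 and 0.05 against −0.99, −0.73, −1.14 and −0.90, a difference of −0.71 (SE 0.20). FGF2, a growth factor, lay at −1.49 and −1.27 against −2.05, −2.05, −1.83 and −2.04, a difference of −0.61 (SE 0.16). SSLP1, a secretory product of trophoblast, differed by −0.41 (SE 0.16). TACR3, the receptor of senktide, was not among the detected genes. None of the genes in these paragraphs reached the adjusted threshold in the 6-array fit without a block.

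With slide as a block, which compares arrays within slides 1 and 2, 11 probes passed the threshold (0.423% of those tested), all of them higher. With slides 1 and 2 alone 8 passed (0.308%), and 9 (0.346%) did so when blocked by replicate number. All of these were among the 11. With slide as a random block, at an estimated correlation of 0.259 within slides, 0 passed, the smallest limma adjusted p was 0.0876, and at an unadjusted p under 0.05 there were 157 higher and 300 lower. Of these 11, 1 had an unadjusted p under 0.05 without the block, and none belonged to the 12 genes per direction above. Their probe sequences shared letters, a pattern noticed after their values were seen. Within the 60-base probes, 7 held GGGTTGGGG, 2 held GGGTTTGGGG and 1 held GGGGCTGGGG. The sequences are shown because these letters are what the called probes have in common. Below, 30 bases are given for 4 of the called probes with GGGTTGGGG, 5′ to 3′ as the deposited probe sequence has them, with the shared letters in capitals. The last 3 are detected probes with the shorter GGTTGGGG that were not called.
VPS16: cgaaaagctgGGGTTGGGGccagggttctg
LOC507527: gaggatgttgGGGTTGGGGgaatcgagtga
ARRDC1: ctctcccaggGGGTTGGGGcctagagagac
FAAP24: aaggagtcggGGGTTGGGGctgaaaccaac
ARPC2: actcctgtatctaaagaaatacGGTTGGGG
EIF4A1: ttgtcctcaGGTTGGGGgagcaggggagag
ATP1B3: ctgaacatgtaGGTTGGGGgtcttgtccag

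In the coordinates of the files (build Btau_3.1), to take 1 of these probes, that of VPS16 lies at chr13:52878290-52878349 (minus strand). The genes have unrelated roles: VPS16 is a subunit of endosomal tethering complexes, RIOX1 a histone and ribosomal protein hydroxylase, FAAP24 a Fanconi anemia core protein and AKT1S1 an inhibitor within mTOR complex 1. Their place in exons, introns or UTRs was not analysed here.

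All 10 called probes with a shared string were above both vehicle arrays on higher dose arrays 1 and 2, and 8 of them were below both vehicle arrays on arrays 3 and 4. The other two, of ARRDC1 and GPAT4, were above both vehicle arrays on arrays 3 and 4, with GPAT4 at −0.12 and −0.08 against 1.02, 1.23, 0.02 and −0.02. AKT1S1 lay at −0.82 and −1.64 on the vehicle arrays and at 2.14, 3.51, −2.57 and −2.40 on the higher dose arrays. Array 1 was 7.77-fold above vehicle array 1 and array 2 was 35.5-fold above vehicle array 2, while arrays 3 and 4 lay below both vehicle arrays. MYADM, a membrane protein, showed the same order, at −0.13 and −0.77 against 2.47, 3.76, −1.89 and −1.94. Its difference was 1.05 (SE 1.52) over the 6 arrays and 3.57 (SE 0.39, limma adjusted p = 0.0129) with slide as a block. Over the 7 probes with GGGTTGGGG the median level was −0.37 and −0.77 on the vehicle arrays, 2.27, 3.63, −1.89 and −1.83 on the higher dose arrays, and −0.46, −1.04, −3.02 and −0.97 on the 4 arrays at 30 nmol/min. The slide 1 and slide 2 arrays at 30 nmol/min stood near the vehicle arrays of those slides.

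A gene with probes of both kinds was AKT1S1. Its other detected probe, which lacks the string, lay at −0.59 and −1.25 on the vehicle arrays and at −1.15, −1.03, −1.02 and −0.97 on the higher dose arrays, a difference of −0.12 (SE 0.20). The high values on arrays 1 and 2 were seen in 1 of the gene's 2 detected probes.

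All 7 detected probes with GGGTTGGGG on the probe strand were called. The string stood in 19 of the 43653 probes (0.0435%), and of these 19 probes 15, 16, 12 and 13 were well above background on higher dose arrays 1 to 4, and 8 and 8 on the vehicle arrays. On the other strand, CCCCAACCC, 22 probes held it, 5 were detected and 0 were called, with a median difference of −0.65. GGGTTTGGGG stood in 9 probes (0.0206%), of which 2 were detected and both called, and GGGGCTGGGG in 8 (0.0183%), of which 1 of 2 detected was called. The shorter GGTTGGGG, which lies inside GGGTTGGGG, stood in 45 probes (0.103%), and its 3 further detected probes, of ARPC2, EIF4A1 and ATP1B3, had differences of 0.30, 0.07 and 0.44 with slide as a block. A plain GGGG stood in 14.7% of the detected probes, with a median difference of −0.12. These matches describe the probes, and their part in the calls was not tested.

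The 11th called probe, of the unnamed transcript TC325723 at chr12:14459756-14459815 (minus strand), behaved otherwise. It lay at −2.08 and −1.89 on the vehicle arrays and at −0.88, −0.68, −1.08 and −1.24 on the higher dose arrays, with no overlap. Its difference was 1.01 (SE 0.19, limma adjusted p = 0.140) over the 6 arrays and 1.20 (SE 0.17, limma adjusted p = 0.0356) with slide as a block. Its limma adjusted p was 0.114 with slides 1 and 2 only and 0.0688 with the replicate block. At 30 nmol/min it lay at −0.99, −1.39, −1.19 and −1.37.

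**Figure D4:**
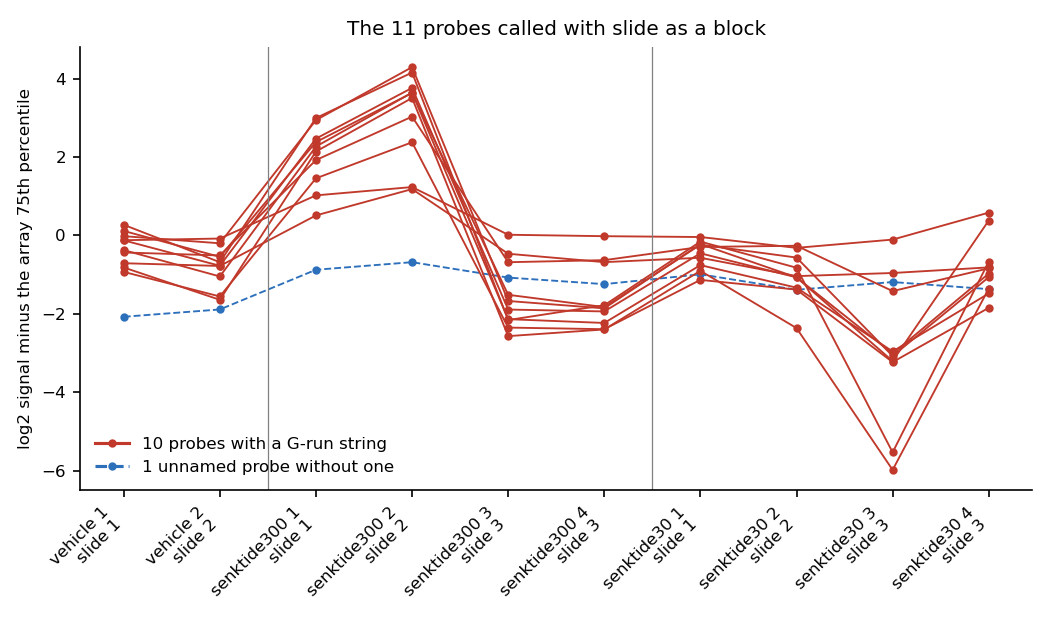
Levels (log2 signal minus the array's 75th percentile) of the 11 probes called with slide as a block are shown on the 10 arrays, with the slide named under each. The 10 probes with a shared G-rich string (red) peak on higher dose arrays 1 and 2, where AKT1S1 reached 3.51, and 8 of them drop below vehicle on arrays 3 and 4; the unnamed probe (blue, dashed) is higher on all 4.

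Across the detected probes the within-number differences shared a sign in 56.2%. Their medians were −0.07 for number 1, on slide 1, and −0.03 for number 2, on slide 2. Past 2-fold were 71 probes in number 1 and 79 in number 2. Past it in both were 11 probes higher and 4 lower, and 0 moved past it in opposite directions. These 11 higher probes were the same 11 that were called with slide as a block. Among the leading genes GLOD4 was past 2-fold in both, with −1.10 and −1.31, as was ARL6IP4. Arrays 1 and 2 of the higher dose correlated with each other at r = 0.983 over the probes and arrays 3 and 4 at 0.984, while pairs across these sets had r from 0.944 to 0.960. The vehicle arrays correlated at 0.948, and vehicle with higher dose arrays at 0.931 to 0.961. On 29 probes arrays 1 and 2 both stood over 2-fold above arrays 3 and 4, on 10 of them over 4-fold, and 6 of these 10 held GGGTTGGGG. The reverse was seen on 0 probes. Slide and scan mark the same arrays and cannot be told apart, and on slides 1 and 2 the replicate number marks them too, while slide 3 holds numbers 3 and 4.

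**Figure D5:**
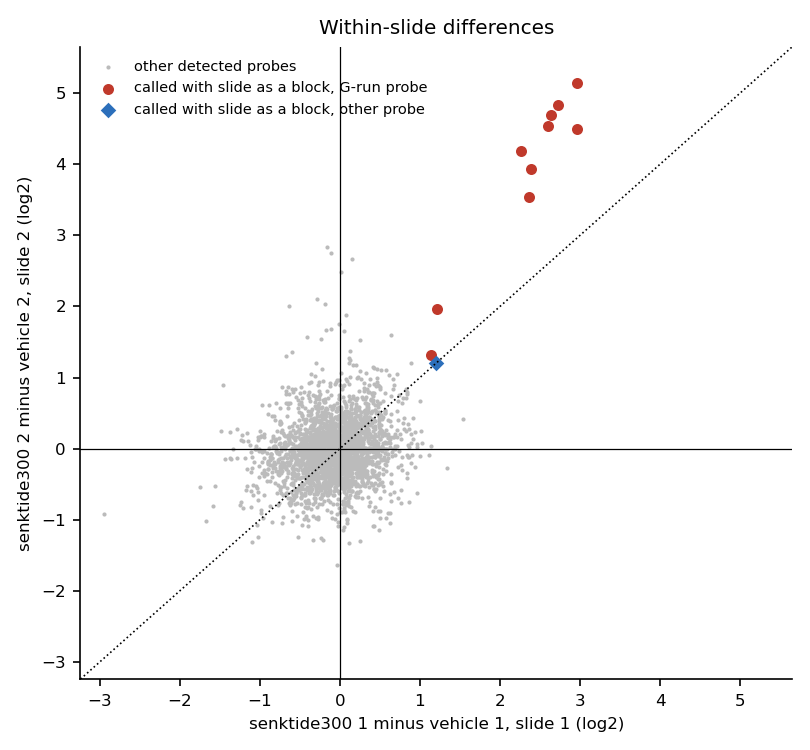
The within-slide difference of array pair 1 (horizontal axis, log2) is plotted against that of pair 2 (vertical axis, log2) for the 2598 detected probes, and the dotted line marks equal values. Of the 10 called probes with a G-rich string (red) 8 lie apart at the upper right, with AKT1S1 at 2.96 and 5.15. Those of ARRDC1 and GPAT4 lie close to the other called probe (blue), which sits on the line at 1.20 and 1.21.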

How the data were processed

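The authors deposited intensity values as scanner text files of 1-colour arrays. Per the file headers they come from version 11.5.1.1 of Agilent Feature Extraction; the submitters' processing notes name 10.5.1.1. The processed intensity is background-subtracted, detrended within the array and not scaled between arrays, per the file headers. The deposited series matrix holds log2 values and was used as an alternative only. Within 0.01 it matched log2 of the processed intensity, scaled to the array's 75th percentile of all probes and centred on the probe's median. The deposited flags mark which spots are well above background and which are outliers; outlier spots were left out, and 0 spots were saturated.

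Here, log2 intensities were averaged over spots of a probe and the array's 75th percentile over the 2598 detected probes was subtracted. Probes were fitted with limma 3.58.1 (R 4.3.3; lmFit and eBayes, no covariate), with Benjamini-Hochberg adjustment over all detected probes and a threshold of 0.05; the script was tested on simulated data. Slide, scan, replicate number, scaling, background correction, filter, array weights and each array left out were varied. Accessions and symbols were matched to RefSeq for names, and coordinates are the files' own. Figures used Python 3.11.15 and matplotlib 3.10.9.

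The same-numbered pairs of vehicle and higher dose arrays shared a slide; their deviations from the group means correlated at r = 0.299 and −0.219. Deviations of 2 vehicle arrays are exact opposites, so these values do not settle pairing, and fits with and without the block are given. Named were, per direction, the 12 genes with the smallest p (no adjusted p passed) among genes whose groups did not overlap and whose 2 within-number differences agreed in sign, for each list with at least 3 detected genes its 2 members of smallest p, and 15 genes fixed by name; LOC identifiers were left out. The 40 gene lists and the probes were chosen with earlier results of these data known, and no list was tested. Some genes and sequences that these rules would name are not reported here.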

Additional observations from a re-analysis of the deposited data

Results flagged for a closer look

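In 5 of the 85 named genes and the share of bright spots (86 series of values over the 4 higher dose arrays), 1 array lay far from the other 3, judged by its gap to the nearest array as a share of the range. Chance gives about 1 in 20 such cases. For FGF2 (share 0.966) array 3 was the highest at −1.83, for PSMD7 (0.865), a proteasome subunit, array 3 was the highest at −0.52, and for UQCC4 (0.909) array 4 was the highest at −1.26. For CHRNA1 (0.861) array 2 was the highest at −1.99. For KRT18 (0.885) array 4 was the lowest at 2.90, below the lower vehicle array. In FGF2, PSMD7, UQCC4 and CHRNA1 the outlying array was the one nearest to vehicle.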

How the results depend on the processing

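Of the 85 named genes 73 kept their direction in each alternative run for them (25, or 24 for 6 genes), taken relative to the shift of all detected probes where a scaling moved it. The alternatives were chosen with earlier results known. Probes past the adjusted threshold, 0 in the comparison as reported, numbered 11 with slide as a block, 9 with the replicate block, 8 with slides 1 and 2 only and 1 with quantile normalization (ARL6IP4, −1.54). Leaving out 1 array gave 0 to 8: 8 higher without vehicle array 1 and 1 lower without vehicle array 2, where the lone vehicle array is assumed to vary like the higher dose arrays. At an unadjusted p under 0.05, higher and lower probes (128 and 286) became 716 and 0 with the 75th percentile of all probes, 755 and 0 with the median of all probes and 718 and 0 with the series matrix, where the median of detected probes shifted by 1.17, 1.42 and 1.17. Higher probes were 70 with array weights. Lower probes were 164 with cyclic loess, 790 with normexp and the 75th percentile (a shift of −0.19), 149 with the replicate block and 151 with slides 1 and 2 only. With probes detected on 2 of 6 arrays there were 488 and 663, and with no filter 85 and 8119. Without 1 array there were 72 to 166 higher and 194 to 322 lower; 72 without higher dose array 3.

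Directions turned as follows. Relative to that shift, normexp with the 75th percentile gave CS 0.087, FN1 0.34, GAPDH 0.24, PGK1 −0.15 and REXO2 −0.11. Leaving out 1 array at a time, GATA3 ranged from −0.34 to 0.19 (also above 0 without higher dose array 2), KLF4 from −0.63 to 0.12 and SPARC from −0.74 to 0.10 (both highest without vehicle array 2), KRT18 from −0.24 (also below 0 without higher dose array 1) to 0.43, and KRT19 from −0.42 to 0.19 (without higher dose array 4). KRT19 was 0.21 with cyclic loess, 0.21 with quantile normalization and 0.041 with normexp and quantile normalization. PDCD10 was 0.11 with cyclic loess and 0.14 with quantile normalization. SOX2 was 0.12 with slide as a block, with the replicate block and with slides 1 and 2 only. The cause of these changes was not tested.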
